A study of Mus musculus with 30 samples.

Results

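Fibroblast growth factor (FGF) and hepatocyte growth factor (HGF) signalling is described here through 9 genes in sorted stromal cells of mouse mammary tumours: the ligand genes Fgf1, Fgf2, Fgf7, Fgf10 and Hgf, and the receptor genes Fgfr1, Fgfr2, Fgfr3 and Met. They were chosen by name as core ligands and receptors of the 2 pathways, and all 9 were found by gene identifier among the 14118 genes of the deposited count matrix. Fgf7 and Fgf10 were fibroblast transcripts, Fgf7 with a mean of 28.6 CPM (counts per 1000000 of the library total) in CD34-negative and 110.0 CPM in CD34-positive fibroblasts, a difference that passed the test only under some settings. Hgf was present in fibroblasts and in macrophages, Met was highest in endothelial cells, and Fgfr1 made up most FGF receptor RNA in the fibroblast, endothelial and CD206-positive macrophage groups.

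The 30 libraries are bulk RNA-seq of 6 populations taken by flow cytometry from each of 5 MMTV-PyMT mammary adenocarcinomas, numbered 5, 6, 8, 10 and 11, from 5 separate mice of strain FVB/N-Tg(MMTVPyVT)634Mul/J. In these mice a mammary tumour virus promoter drives the polyoma middle T oncogene in mammary epithelium, all groups carry that transgene, every tumour had reached 750 mm3, and no normal mammary tissue is among the groups. Endothelial cells were sorted as CD45-, CD31+. Cancer-associated fibroblasts (CAFs) were CD45-, CD31-, CD90+ and were divided by CD34 into CAF1 (CD34-) and CAF2 (CD34+). Tumour-associated macrophages (TAMs) were CD45+, F4/80+ and were divided into CD206+ cells with low MHC class II, called CD206hi here after their titles, CD206+ cells with high MHC class II, called CD206pos, and CD206- cells with low MHC class II, called CD206neg. Each group has n = 5 libraries. The animals' age is not given in the labels.

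Library totals were 6292411 to 11957076 counts, and levels are given in CPM, in the order of tumours 5, 6, 8, 10 and 11 wherever 5 values stand together. A count of 3, the upper limit that a count of 0 allows, equals 0.251 to 0.477 CPM in a single library, and this limit covers counting error only. Sort markers followed the gates at the RNA level, with group means of 927 CPM of Pecam1 (CD31) in endothelial cells and 1.81 CPM or less in the other groups, and of 53.8 CPM of Cd34 in CAF1 against 1603 CPM in CAF2. In the matrix header, the names of 2 CD206neg columns (tumours 6 and 8) say high MHC class II, whereas their labels give low. Those libraries held 7874 and 2778 CPM of the class II gene H2-Aa, against 20.2 to 391 CPM in the other CD206neg libraries. The labels were followed, and the calls of Fgfr1 and Hgf against CD206neg are also given without those libraries. The endothelial library of tumour 8 stood apart as well. Its summed level of 9 endothelial markers was the lowest of its group, at 2870 CPM against 5744 to 6624 CPM in the others, and its fibroblast (1435 CPM) and pericyte (2246 CPM) sums were the highest.

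Markers of other cell types were present in several gates, which bears on the receptor genes in particular. The summed level of 12 luminal epithelial markers, among them Epcam and Krt8, was 236 to 2760 CPM in endothelial libraries, 249 to 1998 CPM in CAF1 and 12.2 to 509 CPM in CAF2. The sum of 5 myoepithelial markers, among them Krt14 and Krt5, was 63.4 to 1370 CPM in endothelial libraries and 84.3 to 4088 CPM in CAF1, where tumour 5 held the highest value, against 2.68 to 10.3 CPM in CAF2. The sum of 8 pericyte markers, among them Rgs5 and Notch3, was 867 to 2246 CPM in endothelial libraries and 377 to 2278 CPM in CAF1, against 84.7 to 126 CPM in CAF2. In bulk libraries of this kind, fewer cells of a type and less RNA per cell cannot be told apart.

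FGFs bind heparan sulfate on cell surfaces and in the matrix and activate tyrosine kinase receptors. FGF7 and FGF10 are paracrine factors that mesenchyme sends to epithelium, where the epithelial splice form of FGFR2 receives them, and FGF10 is required for the mammary bud of the mouse embryo. FGF1 and FGF2 bind many receptor forms and leave the cell without a classical signal peptide. HGF is made by mesenchymal and myeloid cells as an inactive precursor, is cut by serine proteases, and drives growth and motility through its only known receptor, MET. Gene counts do not part the splice forms of the receptors. In build GRCm38.p6 ligand genes lie at chr3:37348477-37410106 (Fgf2), chr2:126034658-126091185 (Fgf7), chr13:118714699-118792573 (Fgf10) and chr5:16553495-16619439 (Hgf). The receptor genes lie at chr8:25518759-25575718 (Fgfr1), chr7:130162451-130266808 (Fgfr2), chr5:33721724-33737068 (Fgfr3) and chr6:17463349-17573980 (Met).

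The promoter windows of Fgf7, Fgf10, Hgf and Met are shown. In the results below Fgf7 and Fgf10 were fibroblast transcripts. Hgf was shared between fibroblasts and macrophages, and Met was highest in endothelial cells. RefSeq promoter entries for build GRCm38.p6, of 300 bases from 250 before to 50 after a transcription start, were found for 7 of the 9 genes, and not for Fgf1 and Fgfr1. The windows lie on the plus strand at chr2:126034408-126034707 (Fgf7), chr13:118714449-118714748 (Fgf10), chr5:16553245-16553544 (Hgf) and chr6:17463707-17464006 (Met). The Met window belongs to a start inside the annotated gene, and the others to the gene's first base.
Fgf7: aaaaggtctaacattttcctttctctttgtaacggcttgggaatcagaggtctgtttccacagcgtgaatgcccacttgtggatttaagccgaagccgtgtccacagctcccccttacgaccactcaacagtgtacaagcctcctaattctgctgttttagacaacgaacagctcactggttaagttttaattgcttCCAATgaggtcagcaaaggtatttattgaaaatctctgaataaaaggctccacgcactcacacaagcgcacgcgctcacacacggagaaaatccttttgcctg
Fgf10: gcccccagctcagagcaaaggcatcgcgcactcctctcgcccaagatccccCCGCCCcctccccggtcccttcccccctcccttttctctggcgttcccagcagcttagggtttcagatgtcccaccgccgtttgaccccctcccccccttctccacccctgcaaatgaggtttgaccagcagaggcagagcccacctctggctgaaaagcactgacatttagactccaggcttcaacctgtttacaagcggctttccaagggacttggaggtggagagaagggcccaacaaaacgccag
Hgf: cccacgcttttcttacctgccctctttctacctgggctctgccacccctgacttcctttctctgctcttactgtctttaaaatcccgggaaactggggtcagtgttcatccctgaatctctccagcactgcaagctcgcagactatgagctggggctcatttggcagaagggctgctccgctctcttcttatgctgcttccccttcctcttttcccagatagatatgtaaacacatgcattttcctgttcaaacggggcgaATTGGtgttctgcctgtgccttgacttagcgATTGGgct
Met: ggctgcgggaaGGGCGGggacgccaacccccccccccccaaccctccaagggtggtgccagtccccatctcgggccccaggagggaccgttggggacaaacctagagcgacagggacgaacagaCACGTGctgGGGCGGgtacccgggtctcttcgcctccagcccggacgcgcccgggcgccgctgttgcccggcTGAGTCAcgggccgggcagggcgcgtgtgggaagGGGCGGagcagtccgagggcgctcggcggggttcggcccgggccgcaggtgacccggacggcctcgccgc
Capitals mark every match, on either strand, to the TATA box with the letters TATAAA, the CCAAT box, the GC box with the letters GGGCGG, the AP-1 site with the letters TGANTCA, the E-box with the letters CACGTG and the TEAD site with the letters GGAATG. No match overlaps another. Of 32817 promoters of this length in the table, 13.6% hold the TATA letters, 37.4% the CCAAT letters, 35.6% the GC box, 7.81% AP-1, 7.15% the E-box and 14.7% TEAD. The Fgf7 window holds 1 CCAAT box at bases -53 to -49 from the start, the Fgf10 window 1 GC box on the reverse strand at -199 to -194, and the Hgf window 2 CCAAT boxes on the reverse strand after the start. Met holds 3 GC boxes, 1 E-box at -126 to -121 and 1 AP-1 match at -54 to -48. Its window has 34 CpG dinucleotides, more than 92.3% of all promoters, while Fgf7, Fgf10 and Hgf have 11, 10 and 7 against a median of 7 over all promoters. A match describes the letters of the window and no binding was measured.

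**Figure D1:**
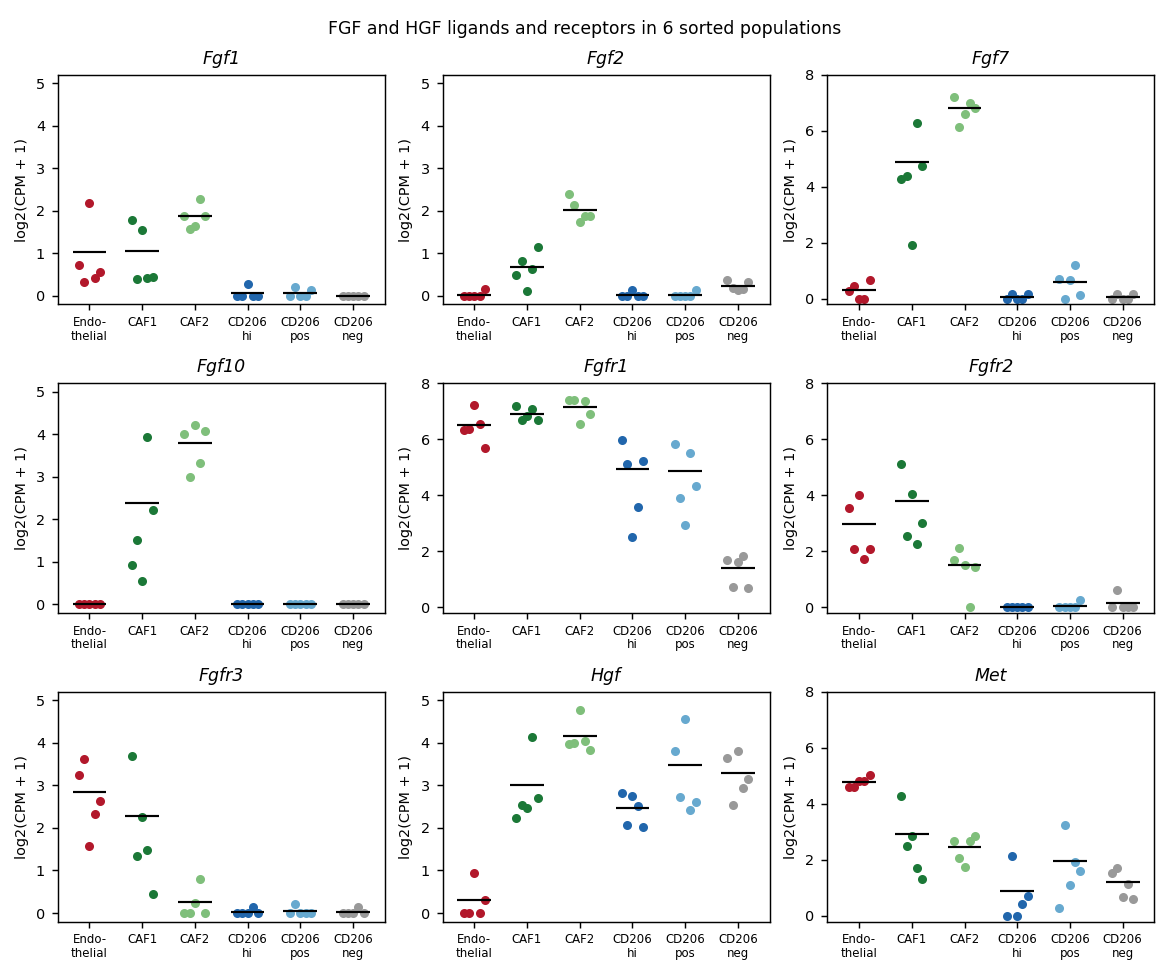
Levels of the 9 genes on a log2(CPM + 1) scale in the 6 sorted populations, with 1 point per tumour in the order 5, 6, 8, 10 and 11 and a bar at the log2(mean CPM + 1) of each group (n = 5). The upper limit of the vertical axis differs between panels. Fgf7 and Fgf10 stand clear of 0 in the fibroblast groups, Met is highest and most even in endothelial cells, and Fgfr1 is far lower in CD206neg than in the other groups.

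Fgf7, which encodes a growth factor for epithelial cells (keratinocyte growth factor), was the most abundant of the 5 ligand transcripts per length in both fibroblast groups. It had 18.3, 20.1, 2.76, 76.1 and 25.7 CPM in CAF1, against 146, 69.5, 96.3, 127 and 111 CPM in CAF2. CAF1 was lower than CAF2 in all 5 tumours, and the ranges overlapped only through CAF1 of tumour 10. The CAF1 mean was 28.6 ± 27.9 CPM, against 110.0 ± 29.3 CPM in CAF2 (SD, n = 5 each). The difference of -1.74 ± 0.59 on the log2 scale (SE) missed the threshold of 0.05 in edgeR's quasi-likelihood test (adjusted p = 0.0572). In the fit that pairs libraries by tumour it was -2.30 and passed (edgeR, adjusted p = 0.0269), and without CAF1 of tumour 10 it was -2.46 and passed as well (edgeR, adjusted p = 0.00697). Of 17 alternatives it passed in 5. Outside the fibroblasts Fgf7 was at 0 to 0.593 CPM in endothelial cells and at 0 to 1.33 CPM in the 15 macrophage libraries, of which 11 counts in 1 CD206pos library is the highest. Over all 6 groups the order of the means was CAF2, CAF1, CD206pos, endothelial, CD206hi and CD206neg, and of the neighbours in that order CAF1 and CD206pos alone had separate ranges. CD206hi and CD206neg exchanged places when CPM were rescaled by TMM.

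Fgf10 was restricted to the fibroblast libraries at this depth. Its counts were 0 in all 5 endothelial and all 15 macrophage libraries, which allows at most 0.0669 CPM over the endothelial group and 0.071 CPM over any macrophage group. Levels were 0.907, 1.85, 0.461, 14.2 and 3.67 CPM in CAF1, against 15, 7.01, 17.6, 8.95 and 15.8 CPM in CAF2. CAF1 was lower in tumours 5, 6, 8 and 11 and higher in tumour 10. The log2 difference of -1.41 ± 0.73 did not pass (edgeR, adjusted p = 0.213). Without CAF1 of tumour 10 it was -2.63 ± 0.64 and passed (edgeR, adjusted p = 0.0124), the only 1 of 17 alternatives to do so. Endothelial cells were at least 63.0-fold lower than CAF1 and at least 193-fold lower than CAF2, taking 3 counts over the endothelial group as the limit (edgeR, adjusted p = 0.000269 and 4.85e-05). Per kilobase of exon, Fgf7 was 12.9 ± 8.03 times Fgf10 in CAF1 and 12.1 ± 4.34 times Fgf10 in CAF2 (SD, n = 5 each), so that the ratio of these ligands differed between the fibroblast groups by less than its spread.

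Hgf was shared between fibroblasts and macrophages. Levels were 3.73, 4.80, 4.52, 16.5 and 5.51 CPM in CAF1, against 14.8, 14.8, 26.4, 15.5 and 13.3 CPM in CAF2. CAF1 was lower in every tumour except tumour 10, where it slightly exceeded CAF2. The log2 difference was -1.12 ± 0.43 and did not pass (edgeR, adjusted p = 0.0886). It was -1.70 ± 0.34 without CAF1 of tumour 10 and then passed (edgeR, adjusted p = 0.00457). Of 17 alternatives it passed in 2. CAF1 of tumour 10 therefore held the highest Fgf7, Fgf10 and Hgf of its group. That library also had the highest Cd34 of CAF1, at 88.3 CPM, and the lowest luminal sum, at 249 CPM, and the part of either in these levels was not tested.

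Macrophage Hgf levels were 6.07, 3.21, 5.70, 4.66 and 3.06 CPM in CD206hi, 13.0, 5.56, 22.4, 4.34 and 5.10 CPM in CD206pos, and 11.5, 4.77, 12.9, 6.67 and 7.91 CPM in CD206neg. Tumours 5 and 8 were the highest in all 3 gates. The fibroblast marker sum in the macrophage libraries was at most 35.0 CPM, against 38502 CPM or more in every CAF library. In endothelial cells Hgf counts were 0 in 3 libraries, 2 in tumour 11 and 10 in tumour 8, the library with the highest fibroblast sum. In the order of the means CAF2 came first, followed by CD206pos, CD206neg, CAF1, CD206hi and endothelial cells, and only the last step had separate ranges. CD206pos and CD206neg exchanged places when CPM were rescaled by TMM.

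Fgf1 and Fgf2, the ligands without a classical signal peptide, were low everywhere. Fgf2 had 0.403, 0.764, 0.0922, 0.562 and 1.22 CPM in CAF1, from 1 to 10 counts, against 4.30, 3.39, 2.32, 2.68 and 2.68 CPM in CAF2. Fgf2 enters the fibroblast fit through CAF2, so the direction of its difference was largely fixed by the count filter. The groups did not overlap, and the log2 difference of -2.12 ± 0.61 passed (edgeR, adjusted p = 0.0272). It no longer passed when any of 5 libraries was left out, namely CAF1 of tumours 5, 6 or 10 or CAF2 of tumours 6 or 11 (adjusted p = 0.053 to 0.067). Fgf2 shares 640 exon bases with Nudt6 on the opposite strand, and since the strand setting of the counting is not given, reads of this stretch cannot be told apart. Nudt6 was lower in CAF1 too, with 4.47 ± 1.58 CPM, against 11.8 ± 2.29 CPM in CAF2 (SD, n = 5 each). Elsewhere Fgf2 had at most 3 counts in any library.

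Fgf1 had 0.664, 0.250, 3.55, 0.346 and 0.474 CPM in endothelial cells, 2.42, 0.327, 1.94, 0.337 and 0.367 CPM in CAF1, and 2.70, 1.99, 2.13, 3.85 and 2.68 CPM in CAF2. CAF1 was lower than CAF2 in all 5 tumours, yet the ranges overlapped and the log2 difference of -1.32 ± 0.52 did not pass (edgeR, adjusted p = 0.0977). Among the endothelial libraries only that of tumour 8 was above 0.664 CPM. In the macrophages no library had more than 2 counts, and all 5 CD206neg libraries were at 0.

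Fgfr1, which encodes the mesenchymal FGF receptor that binds FGF1 and FGF2, was the most abundant receptor transcript of the set. It had 79.6, 80.3, 148, 91.0 and 51.0 CPM in endothelial cells, 144, 103, 114, 134 and 101 CPM in CAF1, and 166, 167, 92.6, 162 and 119 CPM in CAF2. The CAF1 and CAF2 ranges overlapped, with a log2 difference of -0.14 ± 0.20 (edgeR, adjusted p = 0.703). Endothelial cells were lower than CAF1 in 4 of 5 tumours (log2 -0.92 ± 0.46, adjusted p = 0.126) and lower than CAF2 in 4 of 5 tumours (log2 -1.07 ± 0.46, adjusted p = 0.058), and neither difference passed in edgeR. Tumour 8 was the exception in both. Without the endothelial library of tumour 8, or without CAF2 of tumour 8, the difference from CAF2 passed (edgeR, adjusted p = 0.036 and 0.0486). It also passed with all libraries in DESeq2 (log2 -1.09, adjusted p = 0.0461).

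Among the macrophages Fgfr1 separated the CD206 gates. Levels were 61.7, 33.8, 4.73, 11 and 36.4 CPM in CD206hi, 56.3, 14.0, 6.60, 44.3 and 19.0 CPM in CD206pos, and 2.23, 0.662, 2.05, 2.56 and 0.628 CPM in CD206neg. The lowest library of either CD206-positive gate was above the highest of CD206neg, although the positive gates themselves varied widely between tumours, and tumour 8 was the lowest in each. Fgfr1 was 4.06 ± 0.67 log2 units higher in CD206hi than in CD206neg (edgeR, adjusted p = 0.000631) and 3.95 ± 0.67 higher in CD206pos than in CD206neg (edgeR, adjusted p = 0.000679), in 5 of 5 tumours each. CD206hi and CD206pos differed by 0.11 ± 0.56 (edgeR, adjusted p = 0.979). Without the CD206neg libraries of tumours 6 and 8 the differences from CD206neg were 3.93 ± 0.86 and 3.82 ± 0.85 and still passed (edgeR, adjusted p = 0.013 and 0.0128). The fibroblast marker sum, at 15.9 to 35.0 CPM in CD206hi, 6.71 to 27.7 CPM in CD206pos and 6.40 to 33.2 CPM in CD206neg, and the endothelial marker sum, at 2.80 to 8.66, 2.23 to 11.1 and 4.02 to 7.17 CPM in the same gates, overlapped between the gates.

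**Figure D2:**
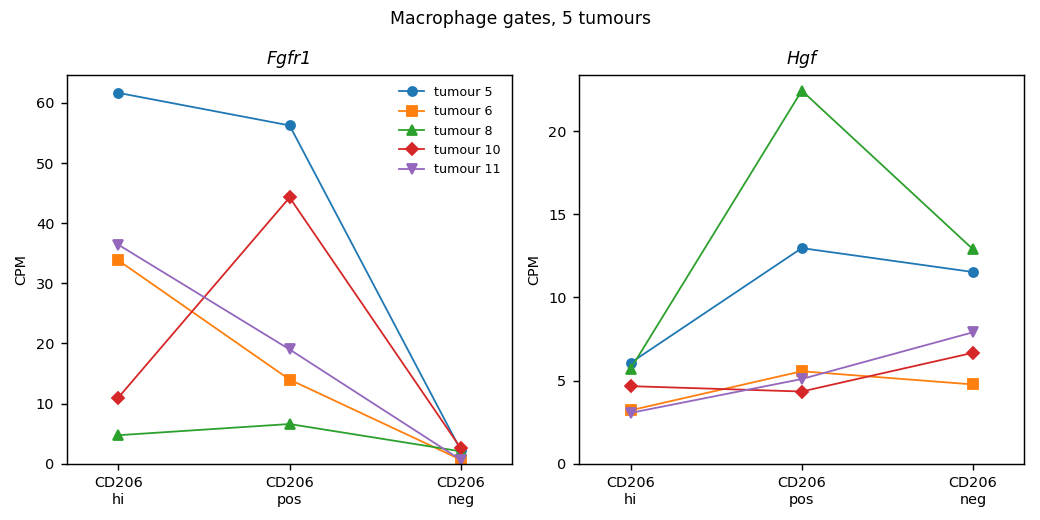
Fgfr1 and Hgf levels in CPM in the 3 macrophage gates, with a line joining the libraries of each of the 5 tumours. Fgfr1 is at or below 2.56 CPM in every CD206neg library and above 4.7 CPM in every CD206hi and CD206pos library, while Hgf in CD206hi is below CD206neg in all 5 tumours.

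Fgfr2, the receptor gene whose epithelial splice form binds FGF7 and FGF10, was higher in CAF1 than in CAF2. It had 33.5, 4.91, 15.3, 3.82 and 6.97 CPM in CAF1, against 2.20, 3.39, 1.86, 0 and 1.72 CPM in CAF2. The lowest CAF1 library exceeded the highest CAF2 library. The log2 difference was 2.73 ± 0.72 (edgeR, adjusted p = 0.0179), and without CAF1 of tumour 5, the library with the myoepithelial sum of 4088 CPM, it was 2.27 ± 0.73 and no longer passed (adjusted p = 0.0553). Endothelial cells had 10.7, 3.25, 15, 2.31 and 3.20 CPM. Tumours 5 and 8 were the highest in both CAF1 and endothelial cells. Those libraries also had the 2 highest myoepithelial sums and the 2 highest pericyte sums of each group. The part of myoepithelial or pericyte RNA in Fgfr2 was not tested, and these libraries cannot tell the 2 apart. In 15 macrophage libraries there were 6 counts in all, 4 of them in CD206neg of tumour 6.

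Fgfr3, which encodes a receptor best known from cartilage and epithelium, was highest in endothelial cells, followed by CAF1. Levels were 8.52, 11.4, 1.96, 4.04 and 5.21 CPM in endothelial cells, 11.9, 1.53, 3.78, 1.80 and 0.367 CPM in CAF1, and 0, 0, 0.186, 0.753 and 0 CPM in CAF2. Endothelial cells were above CAF2 in all 5 tumours without overlap, by 4.57 ± 0.88 log2 units (edgeR, adjusted p = 9.62e-05). Fgfr3 enters that fit mainly through endothelial cells and CAF1, so this direction was largely fixed by the count filter. Endothelial cells and CAF1 overlapped (log2 0.54 ± 0.72, edgeR, adjusted p = 0.619). CAF1 exceeded CAF2 in 5 of 5 tumours, although the ranges overlapped and CAF1 of tumour 11 held only 3 counts. Too few libraries held enough counts for Fgfr3 to be tested in the fibroblast fit. With all 30 libraries in the fit it was tested, with a log2 difference of 4.03 ± 0.87 that passed (edgeR, adjusted p = 0.00141), and it also passed without the filter on low counts (log2 4.05 ± 1.02, edgeR, adjusted p = 0.0145). The highest CAF1 value was again that of tumour 5, with 118 of the 192 counts of the group. That library also had the highest luminal, myoepithelial and pericyte sums of CAF1, and their part in Fgfr3 was not tested. No macrophage library had more than 1 count.

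Per kilobase of exon, which allows comparison between genes, Fgfr1 made up 85% ± 5.76 of the sum of the 3 FGF receptors in endothelial cells, 88.5% ± 8.67 in CAF1 and 98.5% ± 0.601 in CAF2 (SD, n = 5 each). Fgfr3 contributed 9.10% ± 5.51 in endothelial cells, and Fgfr2 8.22% ± 5.76 in CAF1 and 1.29% ± 0.780 in CAF2. The receptor sum itself was alike in the fibroblast groups, at 14.1 ± 3.54 CPM per kilobase in CAF1 and 14.8 ± 3.50 in CAF2, and was 10.9 ± 3.90 in endothelial cells. In the macrophages the sum was 3.06 ± 2.34 in CD206hi, 2.91 ± 2.19 in CD206pos and 0.182 ± 0.087 in CD206neg. On the same per-length scale Fgf7 made up 83.7% ± 11.1 of the 4 FGF ligand transcripts of this set in CAF1 and 89.3% ± 2.49 in CAF2. Other FGF genes are outside that share. Among them Fgf21 averaged 25.0 CPM and Fgf23 18.3 CPM in CAF1, and Fgf18 averaged 35.5 CPM and Fgf23 27.0 CPM in CAF2.

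**Figure D3:**
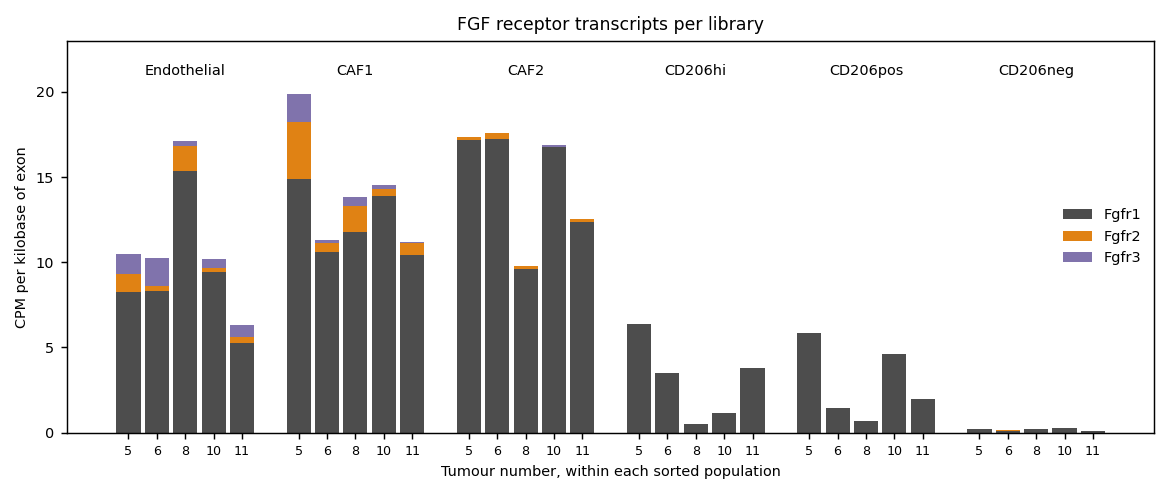
Stacked levels of Fgfr1, Fgfr2 and Fgfr3 in CPM per kilobase of exon, 1 bar per library, grouped by sorted population and ordered by tumour number. CAF2 bars are almost wholly Fgfr1, while among the fibroblast and endothelial libraries Fgfr2 and Fgfr3 together reach their largest share in CAF1 of tumour 5.

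Met, the HGF receptor gene, was highest in endothelial cells. It had 23.4, 23.1, 27.0, 26.8 and 31.8 CPM in endothelial cells, 18.2, 4.58, 6.17, 2.25 and 1.47 CPM in CAF1, and 5.39, 3.15, 2.32, 5.35 and 6.22 CPM in CAF2. The endothelial range lay above both fibroblast ranges and had the smallest relative spread of the 6 groups. Endothelial cells exceeded CAF2 by 2.17 ± 0.74 log2 units (edgeR, adjusted p = 0.0166). Against CAF1 the difference of 1.75 ± 0.72 missed the threshold (edgeR, adjusted p = 0.0608) and passed with tumour as a block (log2 1.72, adjusted p = 0.0375) or without CAF1 of tumour 5 (log2 2.32, adjusted p = 0.0232). Met is also an epithelial gene, and its level is therefore given beside the luminal sums. Endothelial tumour 10, with the lowest luminal sum of its group at 236 CPM, held 26.8 CPM of Met, and CAF1 of tumour 10, with a luminal sum of 249 CPM, held 2.25 CPM. The part of epithelial RNA in endothelial Met was not tested.

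In CAF1 the highest Met value was that of tumour 5, which also had the highest luminal and myoepithelial sums of CAF1. CAF1 and CAF2 differed by 0.44 ± 0.47 log2 units (edgeR, adjusted p = 0.594), and without that library by -0.13. Macrophage levels of Met were 0, 3.35, 0, 0.333 and 0.637 CPM in CD206hi, 0.208, 8.42, 1.16, 2.77 and 2.02 CPM in CD206pos, and 1.92, 2.25, 0.614, 1.22 and 0.502 CPM in CD206neg. In each gate the highest value was that of tumour 6, and in each gate tumour 6 also had the highest luminal sum, at 389 CPM in CD206hi, 405 CPM in CD206pos and 594 CPM in CD206neg. The part of epithelial RNA in macrophage Met was not tested.

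**Figure D4:**
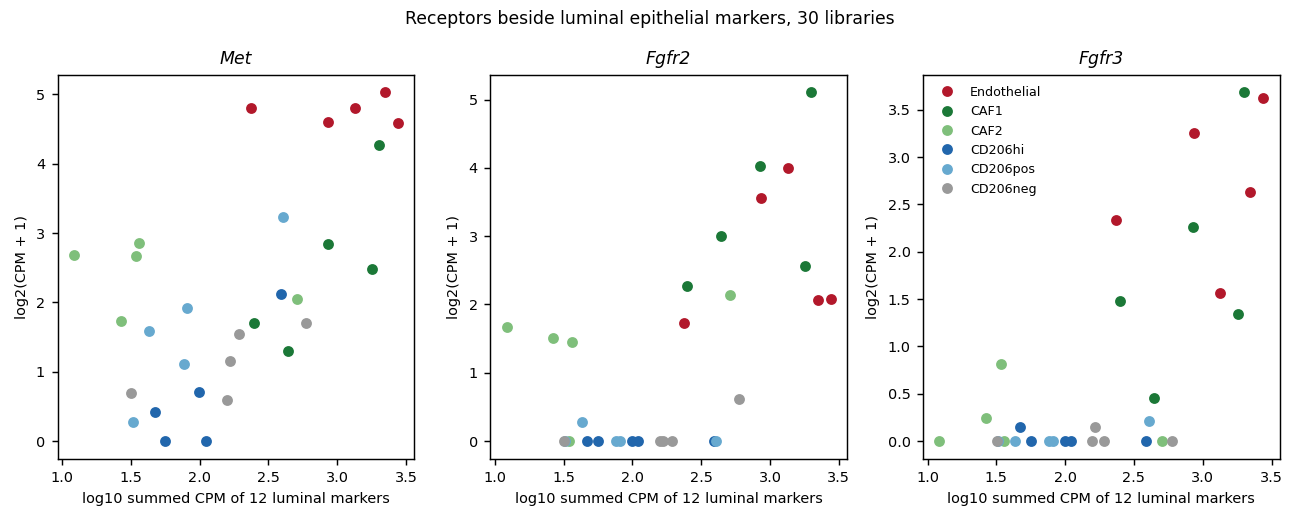
Met, Fgfr2 and Fgfr3 on a log2(CPM + 1) scale against the summed CPM of 12 luminal epithelial markers on a log10 scale, 1 point per library, coloured by population. Endothelial Met stays between 23.1 and 31.8 CPM over luminal sums of 236 to 2760 CPM, while the highest CAF1 point of all 3 genes is tumour 5, at a luminal sum of 1998 CPM.

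The comparison of CAF1 with CAF2 asks which ligands and receptors part the CD34-negative from the CD34-positive fibroblasts. Of the 8 genes tested, 2 passed, Fgf2 lower and Fgfr2 higher in CAF1, while 19.5% of all 12149 genes tested passed, 10.9% higher and 8.59% lower. Fgf2 had at most 10 counts in any CAF1 library and enters this fit through CAF2, so its direction was largely fixed by the count filter. The ligand genes Fgf1, Fgf2, Fgf7, Fgf10 and Hgf all had negative differences, of -1.12 to -2.12, of which Fgf2 alone passed. The median over the 8 genes was -1.22, against 0.01 over all genes tested. The count rested on single libraries: it was 0 without CAF1 of tumour 5 and 4 without CAF1 of tumour 10.

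**Figure D5:**
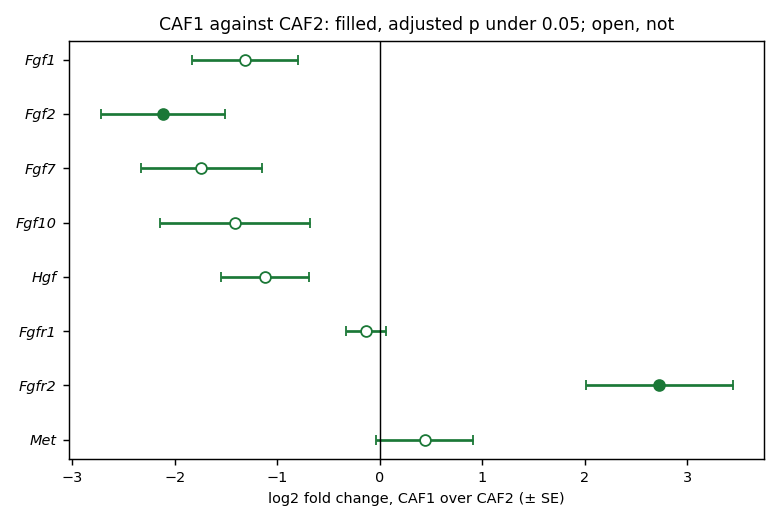
Log2 fold change of CAF1 over CAF2 for the 8 genes tested (edgeR, n = 5 libraries each, bars show SE). Filled points, Fgf2 and Fgfr2, passed at an adjusted p under 0.05, and the open points of Fgf1, Fgf7, Fgf10 and Hgf lie between -1.12 and -1.74 without passing.

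Feedback inhibitors and ETS transcription factors that FGF and other receptor kinases induce through ERK formed a list, with Flrt2 and Flrt3 added. Its 15 genes were each tested on their own. Of these 9 rose and 1 fell in CAF1, with a median log2 difference of 1.27, where over all genes 10.9% rose and 8.59% fell with a median of 0.01. These shares over all genes are also the background of the list counts that follow for CAF1 and CAF2. Dusp6, an ERK phosphatase, averaged 172 ± 147 CPM in CAF1 and 27.5 ± 9.43 CPM in CAF2 (log2 2.59 ± 0.45, edgeR, adjusted p = 0.00149). Dusp4, of the same family, averaged 30.2 ± 22.3 CPM in CAF1 and 3.0 ± 2.23 CPM in CAF2 (edgeR, adjusted p = 0.00336). Flrt2, which encodes a membrane protein that binds FGF receptors, was the gene that fell, with 23.4 ± 10.1 CPM in CAF1, against 118 ± 26.7 CPM in CAF2 (edgeR, adjusted p = 0.00141). Without CAF1 of tumour 5 the counts were 8 and 1. These genes also respond to other receptors, and the mean pericyte, luminal and myoepithelial sums were higher in CAF1 too. The part of these cell types in the list was not tested.

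Other FGF genes split in both directions. Of 9 further FGF family genes tested, 1 rose and 2 fell in CAF1. Fgf21, an endocrine FGF, averaged 25.0 ± 14.5 CPM in CAF1 and 3.60 ± 1.91 CPM in CAF2 (log2 3.03 ± 0.61, edgeR, adjusted p = 0.0039). Fgf18 averaged 4.25 ± 4.66 CPM in CAF1 and 35.5 ± 9.25 CPM in CAF2 (edgeR, adjusted p = 0.0112), and Fgf16 1.69 ± 0.865 CPM in CAF1 and 13.6 ± 5.35 CPM in CAF2 (edgeR, adjusted p = 0.000697). Fgfrl1, the receptor-like gene without a kinase, rose to 23.9 ± 15.8 CPM in CAF1, against 9.77 ± 2.96 CPM in CAF2 (edgeR, adjusted p = 0.0143), and this call was lost with all 30 libraries in the fit (adjusted p = 0.058).

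Heparan sulfate genes, which set how FGFs are held and presented, also differed. Of 11 core proteins tested, 5 rose and 3 fell in CAF1, and without CAF1 of tumour 5 these counts were 5 and 1. The syndecan genes Sdc1 (381 ± 197 CPM in CAF1, 63.8 ± 23.4 CPM in CAF2, edgeR, adjusted p = 0.000127) and Sdc3 (75.0 ± 27.9 CPM in CAF1, 14.6 ± 2.57 CPM in CAF2, edgeR, adjusted p = 1.9e-05) rose. The mean luminal, myoepithelial and pericyte sums were higher in CAF1 too, and their part in these rises was not tested. Among the falls, the glypican gene Gpc3 averaged 156 ± 128 CPM in CAF1 and 702 ± 185 CPM in CAF2 (log2 -1.91 ± 0.56, edgeR, adjusted p = 0.0306), and the syndecan gene Sdc2 311 ± 69.2 CPM in CAF1 and 687 ± 175 CPM in CAF2 (edgeR, adjusted p = 0.0262). Both calls were lost without CAF1 of tumours 5 or 6 or CAF2 of tumours 10 or 11, that of Gpc3 also without CAF2 of tumour 5, and that of Sdc2 also with all 30 libraries in the fit (highest adjusted p = 0.0758 for Gpc3 and 0.295 for Sdc2). Of 13 tested genes for heparan sulfate enzymes and FGF carriers, 2 rose and 5 fell. Hpse, the heparanase, fell to 6.46 ± 2.48 CPM in CAF1, against 35.6 ± 8.33 CPM in CAF2 (edgeR, adjusted p = 0.000166), and Sulf1, a sulfatase that edits heparan sulfate, to 102 ± 32.1 CPM in CAF1, against 261 ± 74.1 CPM in CAF2 (edgeR, adjusted p = 0.00783). Of 12 receptor adaptors tested, Gab1 alone passed, with 19.5 ± 9.29 CPM in CAF1, against 9.85 ± 2.77 CPM in CAF2 (edgeR, adjusted p = 0.00545), a call lost with library totals in place of TMM (adjusted p = 0.0597).

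On the HGF side, 4 of 6 tested genes for HGF-activating proteases and their inhibitors rose in CAF1 and none fell. Those that rose were St14 and Hpn, membrane serine proteases, and Spint1 and Spint2, their inhibitors. The luminal and myoepithelial sums were higher in CAF1 too, and their part in this list was not tested. Spint2 averaged 109 ± 84.9 CPM in CAF1 and 8.21 ± 15 CPM in CAF2 (edgeR, adjusted p = 0.0365), and this call was lost without CAF1 of tumours 5, 6 or 8 or CAF2 of tumours 8, 10 or 11 (highest adjusted p = 0.091). The call of St14 was lost in 8 of 16 alternatives, DESeq2 among them. Without CAF1 of tumour 5 the count was 2 of 6, and leaving out 1 library at a time gave 1 to 4. Of 7 MET partners and genes of the related MSP pathway, 3 rose and 2 fell. Leaving out 1 library at a time gave 2 to 3 rises and 1 to 2 falls. Itga6, a laminin receptor chain, averaged 53.1 ± 55.2 CPM in CAF1 and 2.28 ± 1.72 CPM in CAF2 (edgeR, adjusted p = 0.00289). The part of luminal or myoepithelial RNA in this difference was not tested. Mst1r, the receptor gene most like Met, averaged 5.29 ± 2.15 CPM in CAF1 and 16.8 ± 4.59 CPM in CAF2 (log2 -1.50 ± 0.35, edgeR, adjusted p = 0.0101), a call lost with all 30 libraries in the fit (adjusted p = 0.135).

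Only Fgfr1, Hgf and Met had enough counts to be tested between the macrophage gates. CD206hi against CD206neg asks what goes with CD206 in gates labelled low for MHC class II. Their class II RNA was not matched. H2-Aa was at 13.8 to 92.6 CPM in CD206hi and, without tumours 6 and 8, at 20.2 to 391 CPM in CD206neg. The part of class II level in the differences was not tested. In this comparison 2 of 3 passed, Fgfr1 higher and Hgf lower, against 10% of all genes tested, 6.14% higher and 3.9% lower. Hgf was lower in CD206hi in 5 of 5 tumours, with a mean of 4.54 ± 1.38 CPM in CD206hi and 8.76 ± 3.38 CPM in CD206neg (log2 -1.07 ± 0.33, edgeR, adjusted p = 0.0472). That call was lost when any of 9 of the 10 libraries was left out, all but CD206hi of tumour 8, and without CD206neg of tumours 6 and 8 the adjusted p was 0.154. In CD206pos against CD206neg, 1 of 3 passed, Fgfr1, against 14.7% of all genes, 8.85% higher and 5.85% lower, and Hgf differed by -0.06 ± 0.32 (edgeR, adjusted p = 0.936). In CD206hi against CD206pos, which differ in MHC class II, 0 of 3 passed in edgeR and 0 in DESeq2, against 0.19% of all genes, 0.00905% higher and 0.181% lower, and 1 of 3, Hgf, had an unadjusted p under 0.05 (log2 -1.02 ± 0.33, adjusted p = 0.398). Both CD206 comparisons share the CD206neg libraries.

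Of the wider pathway lists in CD206hi against CD206neg, Etv1 rose, an ETS factor gene, with 38.3 ± 9.18 CPM in CD206hi and 4.12 ± 1.62 CPM in CD206neg (log2 3.10 ± 0.33, edgeR, adjusted p = 2.38e-05). Dusp5, an ERK phosphatase gene, fell to 80.5 ± 40.0 CPM in CD206hi, against 195 ± 109 CPM in CD206neg (edgeR, adjusted p = 0.0211), and that call was lost without CD206neg of tumour 6 (adjusted p = 0.0796). With tumour as a block, 4 of the 9 tested in that feedback list passed in place of 2, while over all 11052 genes 1791 passed in place of 1110. Hpse, the heparanase, rose to 70.8 ± 34.3 CPM in CD206hi, against 8.57 ± 3.30 CPM in CD206neg (edgeR, adjusted p = 0.000549). Nrp1, a co-receptor for several growth factors, averaged 362 ± 71.6 CPM in CD206hi and 124 ± 33.3 CPM in CD206neg (edgeR, adjusted p = 0.0018). In CD206pos against CD206neg Etv1, Hpse and Nrp1 were higher as well, at 33.8 ± 23.1 CPM for Etv1, 49.8 ± 30.3 CPM for Hpse and 369 ± 154 CPM for Nrp1 in CD206pos (edgeR, adjusted p = 4.44e-05, 0.0024 and 0.00195). These 3 genes passed under all 18 alternatives in both comparisons, including the one without CD206neg of tumours 6 and 8. Of 3 further FGF family genes with enough counts, Fgf9 and Fgf11 rose in both CD206-positive gates, and Fgf13 fell in CD206hi, named here after their values were seen. Fgf9 averaged 3.95 ± 2.17 CPM in CD206hi, 2.29 ± 2.20 CPM in CD206pos and 0.0456 ± 0.0629 CPM in CD206neg (edgeR, adjusted p = 0.000366 for CD206hi and 0.00125 for CD206pos against CD206neg). Fgf11 averaged 0.196 CPM in CD206neg, and Fgf13 0.543 CPM in CD206hi. Each of these 3 genes enters the macrophage fit through gates where it is higher, so its direction was largely fixed by the count filter. The Fgf13 call was lost without CD206neg of tumours 6 and 8. Of 5 tested genes for HGF-activating proteases and their inhibitors, Plau and Plat fell in both comparisons, and neither call held without those libraries.

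Endothelial cells against the fibroblasts asks which side of the vessel and stroma holds ligands and receptors. Against CAF1, 4 of 9 passed, Fgf2, Fgf7, Fgf10 and Hgf, all lower in endothelial cells, and 34.7% of all 13610 genes tested passed, 15.9% higher and 18.8% lower. Against CAF2, 7 of 9 passed, against 46.0% of all genes, 23.7% higher and 22.3% lower. Fgf1, Fgf2, Fgf7, Fgf10 and Hgf were lower in endothelial cells, and Fgfr3 and Met were higher. Fgf2, Fgf7 and Fgf10 had at most 5 counts in any endothelial library and enter this fit through the fibroblasts. Hgf had at most 10 counts in any endothelial library, and Fgf1 had more than 6 only in that of tumour 8. Fgfr3 had at most 9 counts in any CAF2 library. The direction of Fgf2, Fgf7, Fgf10 and Hgf in both comparisons was therefore largely fixed by the filter. The same holds for Fgf1 and Fgfr3 against CAF2. Fgf7 averaged 0.238 ± 0.254 CPM in endothelial cells, 28.6 ± 27.9 CPM in CAF1 and 110.0 ± 29.3 CPM in CAF2 (edgeR, adjusted p = 8.74e-09 against CAF1 and 1.43e-10 against CAF2). Hgf averaged 0.234 ± 0.404 CPM in endothelial cells, 7.02 ± 5.36 CPM in CAF1 and 17.0 ± 5.35 CPM in CAF2 (edgeR, adjusted p = 1.04e-07 against CAF1 and 2.25e-09 against CAF2). The Fgf1 call against CAF2 (log2 -1.78 ± 0.72, adjusted p = 0.0463) was lost on leaving out any of 9 of the 10 libraries, and without the endothelial library of tumour 8 the difference was -2.92 ± 0.76 (edgeR, adjusted p = 0.00275). The endothelial libraries enter both comparisons.

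In the list of feedback inhibitors, ETS genes, Flrt2 and Flrt3, 7 of 15 were higher and 1 lower in endothelial cells than in CAF2. Over all genes 23.7% were higher and 22.3% lower. Against CAF1, 4 were higher and 2 lower, where 15.9% and 18.8% of all genes were, and this balance rested on single libraries. The count of higher genes was 1 without CAF1 of tumours 6 or 10 or endothelial tumour 5, and 2 without CAF1 of tumours 5 or 11 or endothelial tumours 6 or 10. Without endothelial tumour 8, 3 were higher and 5 lower. The count of lower genes was 1 without CAF1 of tumours 6 or 8 or endothelial tumours 10 or 11. Dusp6 averaged 334 ± 53.4 CPM in endothelial cells and 27.5 ± 9.43 CPM in CAF2 (log2 3.21 ± 0.41, edgeR, adjusted p = 2.14e-07). Spry4, an inhibitor of receptor kinase signalling, averaged 73.4 ± 25.1 CPM in endothelial cells and 6.69 ± 3.88 CPM in CAF2 (edgeR, adjusted p = 1.16e-06). Of the 9 further FGF family genes, 8 were lower in endothelial cells than in CAF1 and 8 than in CAF2. Apart from Fgf23 (2.05 CPM), their endothelial means were 0.650 CPM or less. They enter this fit through other groups where they are higher, so this direction was largely fixed by the filter. Itga6, a MET partner, averaged 335 ± 53.0 CPM in endothelial cells, 53.1 ± 55.2 CPM in CAF1 and 2.28 ± 1.72 CPM in CAF2 (edgeR, adjusted p = 0.000799 against CAF1 and 2.25e-09 against CAF2).

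In the comparison between lineages, 8 of 9 genes were higher in the 10 fibroblast than in the 15 macrophage libraries, against 37.3% of all genes called higher, 30.8% lower and 68.1% in either direction. Fgf1, Fgf2, Fgf7, Fgf10, Fgfr2 and Fgfr3 did not pass the count filter among the macrophages. They enter this fit through other groups where they are high, so their direction was largely fixed by the filter. Fgfr1 averaged 130.1 ± 28.4 CPM in CAFs and 19.7 ± 21.2 CPM in TAMs (SD over n = 10 and n = 15 libraries, log2 3.26 ± 0.31, edgeR, adjusted p = 1.48e-10). Hgf was the exception, at 12 ± 7.28 CPM in CAFs and 7.79 ± 5.19 CPM in TAMs (log2 0.34 ± 0.30, edgeR, adjusted p = 0.32). Met averaged 5.52 ± 4.79 CPM in CAFs and 1.69 ± 2.13 CPM in TAMs (log2 1.41 ± 0.49, edgeR, adjusted p = 0.0122). Fgf10 was at least 369-fold higher in CAFs, taking 3 counts over the 15 macrophage libraries as the limit.

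Endothelial cells against macrophages gave 6 of 9, against 61.3% of all genes, 36.5% higher and 24.7% lower. Fgf1, Fgfr1, Fgfr2, Fgfr3 and Met were higher in endothelial cells and Hgf was lower. Of these, Fgf1, Fgfr2 and Fgfr3 did not pass the count filter among the macrophages. They enter this fit through other groups, so their direction was largely fixed by the filter. Hgf had at most 10 counts in any endothelial library and enters through fibroblasts and macrophages, so its direction was largely fixed too. Met averaged 26.4 ± 3.52 CPM in endothelial cells and 1.69 ± 2.13 CPM in TAMs (log2 3.37 ± 0.55, edgeR, adjusted p = 4.31e-06), and Hgf 0.234 ± 0.404 CPM in endothelial cells and 7.79 ± 5.19 CPM in TAMs (log2 -5.49 ± 0.60, edgeR, adjusted p = 3.16e-09). Fgf2 and Fgf7 did not pass, and Fgf10 was at 0 on both sides. No comparison was made with the tumour cells themselves, which are not among the sorted groups.

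Genes with the most similar pattern to each of the 9 were found by Pearson's r of log2(CPM + 1) over the 30 libraries, given as a description, since the libraries share populations and tumours. For Fgf7 they were Lgi2 (r = 0.988), Olfml1 (0.987) and Serpina3m (0.985), and for Fgf10 Sfrp4 (0.981), Dbx2 (0.980) and Vegfd (0.977). Sfrp4, a secreted Wnt antagonist, averaged 98.1 CPM in CAF1 and 1373 CPM in CAF2. Fgf2 was closest to Fam205c (0.973), Fgf16 (0.972) and Serpinb9b (0.969), and Fgf1 to Adgrg2 (0.944), Kcne1l (0.924) and Spsb4 (0.911). Fgfr1 was closest to Klf9 (0.963), Gem (0.939) and Hcfc2 (0.939). Klf9, a Krüppel-like transcription factor, averaged 58.0 CPM in endothelial cells, 123 CPM in CAF1, 121 CPM in CAF2, 15.8 CPM in CD206hi, 15.8 CPM in CD206pos and 2.05 CPM in CD206neg. Fgfr2 was closest to Rerg (0.949), Cpe (0.947) and Art3 (0.943), and Fgfr3 to Kcnh1 (0.942), Mpp2 (0.936) and Foxc2 (0.936). The nearest to Hgf were Lsp1 (0.910), Pygl (0.901) and Slc41a3 (0.898), and to Met Efna1 (0.914), Phlpp1 (0.914) and Pgf (0.913). Efna1, an ephrin ligand, averaged 519 CPM in endothelial cells and 15.6 CPM or less elsewhere. With a pseudocount of 0.1 in place of 1, 8 of these 27 genes were still among the nearest 3.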

How the data were processed

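RNA-seq libraries of 6 sorted populations from 5 mouse tumours were analysed. Per the labels' protocols, dissociation used collagenase I and DNase, SMARTseq v4 gave the cDNA, and Ovation Ultralow V2 gave the libraries. Per the submitters' processing notes, the tools were Trimmomatic 0.36, HISAT2 2.0.4, SAMtools 1.3.1 and DESeq2 1.26 with build mm10. For the counting tool, its annotation and its strand setting the answer is: not given in the sources used here. Raw counts, as deposited by the authors, were used for 14118 genes with at least 72 counts each over all libraries. The authors' normalised matrix was not used.

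Counts were tested in R 4.3.3 with edgeR 4.0.16 (filterByExpr, TMM, quasi-likelihood F test, a call being a Benjamini-Hochberg p below 0.05 across the tested genes), in 1 fit of the 10 fibroblast libraries (12149 genes), 1 of the 15 macrophage libraries (11052 genes) and 1 of all 30 (13610 genes) for comparisons between lineages. The SE is the size of the log2 fold change over the square root of F. TAM and CAF means in that fit are means of group effects on the log2 scale. Fitted folds are not given where no library of a side exceeds 3 counts. The 6 populations of a tumour come from 1 animal, so the tumour number pairs them; the correlation of deviations from group means within a tumour was 0.0205 to 0.381, 0.111 to 0.648 and 0.0213 to 0.574 in the 3 fits. Values with tumour as a block are given where they change a call. Exon lengths are the union of GENCODE vM21 exons within RefSeq gene bounds, both on GRCm38, the assembly of mm10. Promoter sequences are from RefSeq (GRCm38.p6).

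The 9 genes, 8 pathway lists (94 genes, 75 in the matrix) and 10 marker lists were chosen with earlier results of these data known. Adipocyte and T cell markers were not in the matrix, and of the Schwann cell list 1 of 3 genes was. Named pathway genes are, per list and comparison, at most 2 called rises and 2 called falls with the largest change and with 10 CPM or more on average where higher. Hpn, Spint1, Fgf9, Fgf11, Fgf13 and Plat are named beyond this rule, after their values were seen. The scripts were tested on simulated counts with known changes. Alternatives were RLE factors, library totals, a filter of 50 counts in 5 libraries, no filter, DESeq2 1.42.0, the block, a limit of 2-fold, all 30 libraries in each fit, each library left out, and both CD206neg libraries of tumours 6 and 8 left out.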

Additional observations from a re-analysis of the deposited data

Results flagged for a closer look

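In 9 of the 36 combinations of gene and population that were tested for it, 1 library lay far from the other 4 of its group. The limit used is one that chance passes in about 1 in 20 groups of normally distributed values, which low counts with several zeros need not follow. Of the 9, 2 were in CAF1 of tumour 10, where Fgf10 reached 14.2 CPM against 0.461 to 3.67 CPM in the other tumours, and Hgf 16.5 CPM against 3.73 to 5.51 CPM. Met reached 18.2 CPM in CAF1 of tumour 5, against 1.47 to 6.17 CPM in the others. The endothelial library of tumour 8 held 3.55 CPM of Fgf1, against 0.250 to 0.664 CPM, and 0.933 CPM of Hgf, against 0 to 0.237 CPM. CAF2 of tumour 8 held 26.4 CPM of Hgf, against 13.3 to 15.5 CPM, and CAF2 of tumour 10 held 0.753 CPM of Fgfr3, against 0 to 0.186 CPM. In the macrophages Met reached 3.35 CPM in CD206hi of tumour 6, against 0 to 0.637 CPM, and Fgfr2 0.530 CPM in CD206neg of tumour 6, from 4 counts, where the other 4 libraries had none.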

How the results depend on the processing

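Of 804 recomputed log2 fold changes of the 9 genes, 747 kept their direction and their side of the threshold. The number of genes of the set that passed in CAF1 against CAF2 (2) was 4 of 9 with all 30 libraries in the fit, 4 with library totals, 0 under a filter of 50 counts in 5 libraries, which left 5 genes to test, and 0 to 4 when 1 library was left out. In CD206hi against CD206neg (2) it was 1 with all 30 libraries, library totals, no filter, or without CD206neg of tumours 6 and 8, and 1 to 2 when 1 library was left out. Under the 50-count filter it was 4 in endothelial cells against CAF2 (7) and 5 in CAF against TAM (8), with 6 genes tested in each. Over all genes, CD206hi against CD206pos (21) gave 36 with all 30 libraries, 83 in DESeq2, 97 with the replicate block and 5 to 48 with 1 library left out. CD206hi against CD206neg (1110) gave 729 with library totals, 1791 with the block and 545 without CD206neg of tumours 6 and 8. CD206pos against CD206neg (1625) gave 920, 2800 and 930 under the same settings and 1079 past 2-fold, and CAF against TAM (9270) gave 5985 past 2-fold. With the block, beyond the calls given for Fgf7 and Met, no other call among the 9 genes changed.

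Sign changes were seen only in differences that did not pass. Hgf in CD206pos against CD206neg was 0.20 with library totals (main value -0.06) and -0.41 to 0.12 with 1 library left out. On leaving out 1 library, Fgfr1 in CAF1 against CAF2 ran from -0.26 to 0.0015, Met in the same comparison from -0.13 to 0.64, Fgfr1 in CD206hi against CD206pos from -0.21 to 0.42, Met in CD206pos against CD206neg from -0.0022 to 1.57, and Fgf7 in endothelial cells against TAM from -0.34 to 0.69. Library totals in place of TMM moved the median of all genes to 0.41 for CAF against TAM, 0.89 for endothelial cells against TAM, 0.43 and 0.44 against CAF1 and CAF2, and 0.16 and 0.19 for CD206hi and CD206pos against CD206neg. The share of calls that were higher then became 68.9%, 82.9%, 69.0%, 70.6%, 78.7% and 83.3% (54.8%, 59.7%, 45.8%, 51.6%, 61.2% and 60.2% with TMM). Endothelial Met averaged 18.3 TMM-scaled CPM. The causes were not tested. At this depth a count of 0 allows 0.251 to 0.477 CPM in a library.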
